A study of Mus musculus with 10 samples.

Results

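Zscan4, Usp17-like and some multicopy 2-cell genes were left out by symbol. Among the rest, Zscan4-positive mouse embryonic stem (ES) cells contained 84 transcripts that were nearly missing from 4 other sorted ES cell fractions. They were chosen by their values: a level of at least 3 FPKM (fragments per kilobase of transcript, scaled to the total of mapped fragments) in Zscan4-positive cells, and a level of at most 0.1 of that in each of the 4 other fractions. Of 32361 annotated rows, 9996 reached 3 FPKM in Zscan4-positive cells and 110 of those (1.1%) stayed within the share limit. The 84 are what is left of the 110 after 26 rows of the left-out families, microRNAs and small nucleolar RNAs. Leaving out went by symbol alone, so other multicopy 2-cell genes can remain among the 84. Since the rule used all 5 values of each gene, their levels below describe the set and test nothing.

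All cells were of the E14Tg2a.4 ES line, sorted by fluorescence. In one derivative, fluorescent proteins knocked in at both Esrrb and Tbx3 gave 3 fractions: double-negative cells lacked both signals, single-positive cells had Esrrb alone and double-positive cells had both. The other derivative carried a piggyBac transgene in which a piece of the Zscan4c promoter drives the reporter, and gave Zscan4c-positive and Zscan4c-negative cells, called Zscan4-positive and Zscan4-negative here. Each fraction has 2 libraries, collected on separate days, but the deposited table merges them into 1 FPKM value, so that the spread between libraries and the read depth are unknown and no difference below carries an error or a p-value. The reporter follows a promoter fragment and not the protein. All comparisons with another fraction share the Zscan4-positive column, and in sorted bulk RNA fewer cells with a transcript and less of it per cell cannot be told apart.

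Zscan4 genes encode zinc finger and SCAN domain proteins that are transcribed in the late 2-cell embryo, and a small share of cultured ES cells enters a state with these transcripts for a short time and leaves it again. The state is known for transcripts of embryonic genome activation, many of them from gene families with several copies, from retrotransposon-linked promoters and from genes otherwise silent in ES cells. Zscan4c itself followed the sort and was at 120 FPKM in Zscan4-positive and at 0.255 in Zscan4-negative, 0.671 FPKM in double-positive, 0.0140 in single-positive and 0.339 in double-negative cells.

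Of 55 members with an entry in the RefSeq promoter table (GRCm38.p6, 250 bases before to 50 after each start), 3 had promoters that resembled each other, although the genes lie on different chromosomes and are of different families. They are Gm8994 (RefSeq Eif4a3l1, a relative of the exon junction helicase eIF4A3; chr6:136327289-136327588, plus strand), B020004J07Rik (RefSeq Pramel17, of the PRAME family of leucine-rich repeat proteins; chr4:101843973-101844272, minus strand) and Esp24 (a secreted peptide of the exocrine gland family; chr17:39036445-39036744, plus strand). The sequences are shown because this likeness is a property the choice of members did not use. Each is written 5′ to 3′ on the gene's strand, and capitals mark every base inside a word of 16 bases found, on either strand, in all 3.
Gm8994: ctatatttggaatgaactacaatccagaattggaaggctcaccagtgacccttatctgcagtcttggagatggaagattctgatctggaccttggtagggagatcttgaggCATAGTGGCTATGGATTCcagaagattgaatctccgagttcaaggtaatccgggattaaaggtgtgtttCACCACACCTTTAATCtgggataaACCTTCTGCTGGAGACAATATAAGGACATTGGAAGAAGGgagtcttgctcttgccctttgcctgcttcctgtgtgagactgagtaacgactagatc
B020004J07Rik: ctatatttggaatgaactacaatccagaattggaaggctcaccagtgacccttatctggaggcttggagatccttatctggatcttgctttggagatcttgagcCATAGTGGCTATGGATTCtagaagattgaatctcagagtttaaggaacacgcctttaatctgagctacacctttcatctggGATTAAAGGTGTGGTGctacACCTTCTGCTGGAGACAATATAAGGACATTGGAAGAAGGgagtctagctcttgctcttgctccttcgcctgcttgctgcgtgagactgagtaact
Esp24: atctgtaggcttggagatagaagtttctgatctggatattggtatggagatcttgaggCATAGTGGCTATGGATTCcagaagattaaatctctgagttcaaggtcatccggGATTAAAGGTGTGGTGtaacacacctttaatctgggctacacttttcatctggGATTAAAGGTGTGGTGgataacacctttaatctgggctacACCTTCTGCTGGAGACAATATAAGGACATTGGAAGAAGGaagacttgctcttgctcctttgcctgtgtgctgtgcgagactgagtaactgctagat
The longest shared run, just before the start, is 39 bases. Aligned over their length, Gm8994 and B020004J07Rik were 81.2% identical over 308 alignment columns, Gm8994 and Esp24 74.7% over 300, and B020004J07Rik and Esp24 73.6% over 299.

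A similar promoter (an alignment of at least 100 bases) was found at 36 other genes of the 27025 in that table. Of these, 16 rows were in the deposited table and 7 reached 1 FPKM in at least 1 fraction, and 3 of the 7 (42.9%) were at least 2-fold higher in Zscan4-positive than in Zscan4-negative cells. Over all 13595 rows compared in that way the share was 3.46%. The 7 rows are few, 1 gene enters with both of its rows, and this search was made after the values were known. The 3 were both rows of Sp110, a nuclear body protein gene, and Arih2, a ubiquitin ligase gene at 45.7 against 21.1 FPKM. Both Sp110 rows are of a left-out symbol, and 1 of them lies within the value limits of the set at 4.56 against 0.0798 FPKM. That row reached 1 FPKM in Zscan4-positive cells alone. The other was at 1.55 FPKM in Zscan4-positive and 0.228 in Zscan4-negative cells, but at 3.98 in single-positive and 6.28 in double-negative cells. Apart from Sp110 only Arih2 passed 2-fold, so the 42.9% rests mainly on 1 left-out symbol. The rest were below 2-fold: Pemt, a phosphatidylethanolamine methyltransferase gene, was at 10.9 against 5.99 FPKM, Sgk1, a kinase gene, at 127 against 115, and Gpr161 and Amd2 differed by 0.51 and -0.03 in log2(FPKM + 1). A promoter of this kind was thus found both at genes restricted to Zscan4-positive cells and at genes within 2-fold in the Zscan4 sort.

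Other pairs lay mostly between genes of 1 family. Tdpoz4 (chr3:93796148-93796447) and Gm4858 (RefSeq Tdpoz8; chr3:93073271-93073570), both on the plus strand, belong to the TDPOZ family of BTB domain proteins, relatives of the ubiquitin ligase adaptor SPOP, and had annotated starts that were 94.3% identical over 300 bases. The printed Gm4858 window lies inside the gene, whose locus runs from 93068823 to 93075505, and not at its first base. Gm13078 (RefSeq Pramel24; chr4:143719201-143719500, plus strand) and Pramef6 (RefSeq Pramel11; chr4:143900331-143900630, minus strand) were 86.7% identical over 300 bases. Capitals again mark words of 16 bases shared by the pair, 240 bases in the first pair and 160 in the second.
Tdpoz4: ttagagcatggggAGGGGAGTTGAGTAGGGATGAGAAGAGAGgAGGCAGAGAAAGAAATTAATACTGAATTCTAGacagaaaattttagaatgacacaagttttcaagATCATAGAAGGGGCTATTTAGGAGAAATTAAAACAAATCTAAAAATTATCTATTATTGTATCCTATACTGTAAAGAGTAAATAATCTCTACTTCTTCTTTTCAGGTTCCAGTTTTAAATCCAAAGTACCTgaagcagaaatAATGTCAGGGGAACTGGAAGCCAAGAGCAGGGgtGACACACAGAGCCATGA
Gm4858: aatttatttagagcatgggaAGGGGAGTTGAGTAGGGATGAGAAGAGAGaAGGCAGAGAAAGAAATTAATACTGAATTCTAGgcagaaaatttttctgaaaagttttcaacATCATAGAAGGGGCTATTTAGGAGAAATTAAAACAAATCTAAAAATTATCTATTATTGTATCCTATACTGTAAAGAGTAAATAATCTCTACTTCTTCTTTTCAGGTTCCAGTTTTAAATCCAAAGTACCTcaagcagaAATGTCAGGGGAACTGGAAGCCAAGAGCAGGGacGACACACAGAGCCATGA
Gm13078: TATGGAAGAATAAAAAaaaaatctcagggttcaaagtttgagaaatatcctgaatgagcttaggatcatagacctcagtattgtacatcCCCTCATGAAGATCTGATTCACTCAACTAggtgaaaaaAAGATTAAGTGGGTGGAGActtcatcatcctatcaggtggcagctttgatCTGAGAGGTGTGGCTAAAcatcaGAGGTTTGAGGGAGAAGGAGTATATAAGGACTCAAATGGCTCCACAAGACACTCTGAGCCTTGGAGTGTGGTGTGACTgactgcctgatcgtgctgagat
Pramef6: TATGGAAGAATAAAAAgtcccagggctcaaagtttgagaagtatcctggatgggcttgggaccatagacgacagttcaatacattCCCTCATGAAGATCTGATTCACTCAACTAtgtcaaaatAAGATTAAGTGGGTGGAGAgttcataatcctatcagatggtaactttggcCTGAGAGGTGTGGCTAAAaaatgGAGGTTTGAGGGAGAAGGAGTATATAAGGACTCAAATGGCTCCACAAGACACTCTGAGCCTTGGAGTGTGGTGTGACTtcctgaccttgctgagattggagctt
Such copies can share reads, so the split of FPKM between family members is uncertain. In all, 10 of the 55 members had a promoter that matched that of another member, in 7 pairs. Besides the pairs among Gm8994, B020004J07Rik and Esp24, AF067061 and Gm4858 also had unlike names and different chromosomes, at 73.0% over 152 alignment columns.

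The promoters of the 55 members with an entry were poor in CG dinucleotides. The other members, Tmem92 and Arg2 among them, had no entry and are not covered. The median count in the 300 bases was 3, with quartiles of 1 and 11, and 35 of 55 members (63.6%) had fewer than 5. Among protein-coding genes that reached 1 FPKM in at least 1 fraction, 5.95% had fewer than 5 and the median was 21. Among protein-coding genes below 1 FPKM in every fraction, 58.9% had fewer than 5 and the median was 3, as in the members. Of the 51 protein-coding members alone, 66.7% had fewer than 5 and the median was 3. In this count the members with an entry therefore resembled genes silent in all 5 fractions more than expressed genes. At the other end, 9 members (16.4%) had 20 or more CG dinucleotides, against 53.7% of the expressed and 10.1% of the silent genes. One of these is 0610040J01Rik, with 35, whose promoter (chr5:63812245-63812544, plus strand) is printed with each CG in capitals as a contrast to the 3 CG-poor promoters above.
0610040J01Rik: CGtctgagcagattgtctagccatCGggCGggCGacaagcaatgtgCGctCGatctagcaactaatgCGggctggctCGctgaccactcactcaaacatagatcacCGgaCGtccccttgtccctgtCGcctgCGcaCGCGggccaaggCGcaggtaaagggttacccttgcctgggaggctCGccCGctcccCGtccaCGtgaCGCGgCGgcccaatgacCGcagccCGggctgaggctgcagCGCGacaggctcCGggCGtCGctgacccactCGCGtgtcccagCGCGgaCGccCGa

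**Figure D1:**
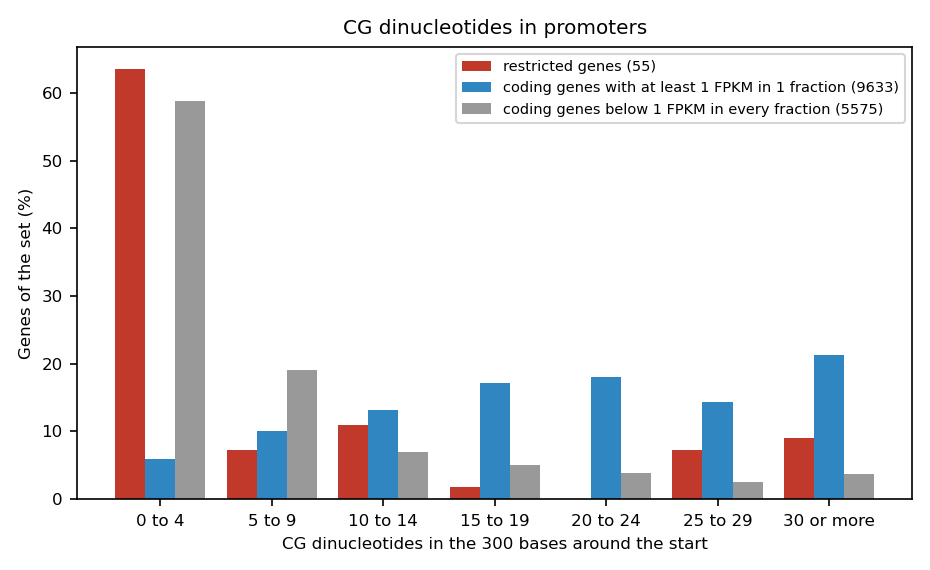
Share of genes (y axis, %) by the number of CG dinucleotides in the 300 bases around the annotated start (x axis), for 55 restricted genes, 9633 protein-coding genes with at least 1 FPKM in 1 fraction and 5575 protein-coding genes below that in every fraction. The first bar of the restricted genes stands at 63.6%, near that of the silent genes (58.9%) and far from that of the expressed genes (5.95%).

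The levels of the members in the other fractions, which the rule used, are given here by CG class as a description. The 35 members with fewer than 5 had a median level in Zscan4-negative cells of 0% of their Zscan4-positive level, and 18 of them were listed at 0 there. The 9 members with 20 or more (Stox1, Il6ra, Foxa1, Adgrl3, 0610040J01Rik, Gm4285, Mgll, Fam124a and 5430402O13Rik) had a median of 2.53% and none was listed at 0. In single-positive cells the medians were 0.0992% and 2.44%, in double-negative cells 0.591% and 4.00%, and in double-positive cells 1.35% and 2.67%. Median levels in Zscan4-positive cells were close, at 7.52 and 8.91 FPKM. The rule caps these shares at 10% in both classes but does not order them.

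2 short motifs were searched on both strands of the 300 bases, each counted whether or not the other overlapped it. The word TGCACAC, known as a site of ZSCAN4 proteins, was in 7 members (12.7%) and 5.02% of all genes, and TATAAA in 11 (20%) and 15.7%. The 7 were Abcb5, Cntnap3, Cpb2, Fam124a, Nfam1, Ninj2 and Trim75, genes of unlike function and level. A match describes the letters only.

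Levels in Zscan4-positive cells ran from 3.03 to 163 FPKM with a median of 7.39, and 31 members had at least 10 FPKM. All 84 were at least 2-fold higher than in Zscan4-negative cells on the scale of log2(FPKM + 1), against 3.46% of all 13595 compared rows, which follows from the rule. RefSeq lists 62 members as protein-coding, 4 as long noncoding, 3 as transcribed pseudogenes, 1 as the telomerase RNA and 1 as a small nuclear RNA, and 13 were not matched. Protein-coding members with a single exon in every GENCODE transcript numbered 6 of 64 (9.38%), against 2.03% of the 12171 protein-coding genes among the compared rows and 6.06% of all 21923.

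**Figure D2:**
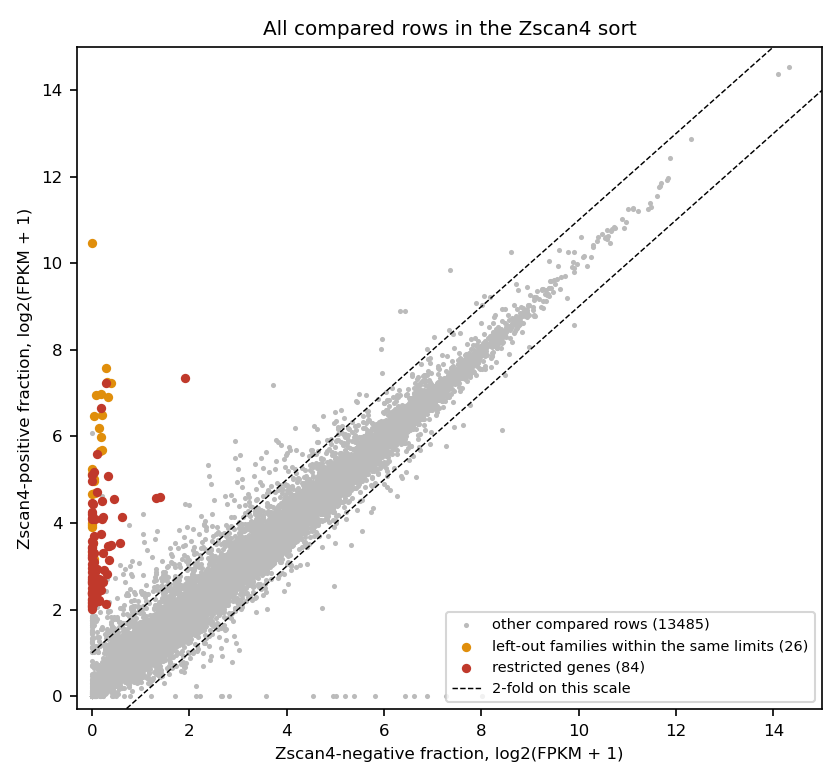
Level in Zscan4-positive (y axis) against Zscan4-negative cells (x axis), both as log2(FPKM + 1), with 1 point per row and dashed lines at 2-fold. The 84 restricted genes (red) lie at the left edge with the 26 rows of left-out families (orange), while most of the other compared rows lie between the lines.

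The 3 genes that mark the set were each more than 20 FPKM in Zscan4-positive cells and below 1 FPKM elsewhere. Tmem92 encodes a small transmembrane protein (mm10, chromosome 11, 94777217 to 94782703, minus strand). It was at 47.5 FPKM in Zscan4-positive, 0.0690 in Zscan4-negative, 0.558 in double-positive, 0.0252 in single-positive and 0.218 in double-negative cells. Arg2 encodes the mitochondrial arginase, which splits arginine into ornithine and urea (deposited locus on chromosome 12, 79130788 to 79172458, plus strand). Vti1b, at 37.3 FPKM in Zscan4-positive and 40.3 in Zscan4-negative cells, has the same deposited locus, and RefSeq ends Arg2 at 79156301. Arg2 was at 35.3 FPKM in Zscan4-positive and 0.0236 in Zscan4-negative cells, with 0.279, 0.0629 and 0.245 FPKM in the double-positive, single-positive and double-negative fractions. The third, 0610040J01Rik, lies on the plus strand of chromosome 5 from 63812495 to 63899619. Its level was 22.4 FPKM in Zscan4-positive, 0.377 in Zscan4-negative, 0.511 in double-positive, 0.401 in single-positive and 0.678 in double-negative cells, the most even of the 3 across the other fractions.

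**Figure D3:**
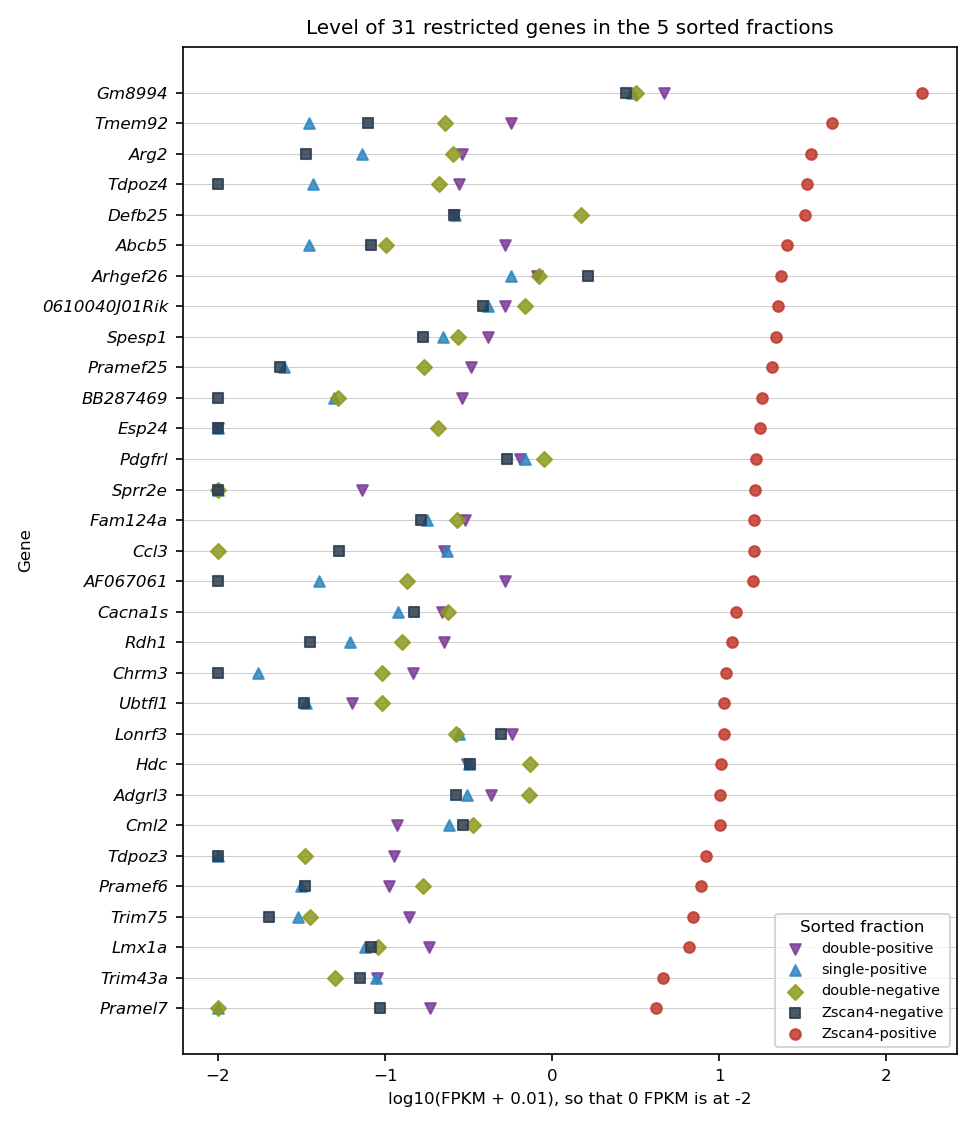
Level of 31 named members in each of the 5 sorted fractions, as log10(FPKM + 0.01) on the x axis, ordered by the Zscan4-positive level; 1 point per gene and fraction, without error bars because the deposited table has 1 value per fraction. Red circles stand apart on the right for every gene, and among the other symbols the double-positive and double-negative ones tend to lie to the right.

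Enzymes and transporters included genes with defined roles in adult tissues. Abcb5, an ATP-driven efflux transporter gene, was at 25.4 FPKM in Zscan4-positive cells and at 0.0719 in Zscan4-negative, 0.515 in double-positive, 0.0252 in single-positive and 0.0912 in double-negative cells. Rdh1, a retinol dehydrogenase gene, was at 11.9 FPKM and at most 0.214 elsewhere. Hdc, whose product makes histamine from histidine, was at 10.3 FPKM with its next level, 0.724 FPKM, in double-negative cells. Mgll, the monoacylglycerol lipase gene, was at 8.91 FPKM and Cpb2, a plasma carboxypeptidase gene, at 6.80 FPKM. Cml2, an N-acetyltransferase-like gene, stood at 10.1 FPKM and Lonrf3, an X-linked RING finger gene, at 10.6 FPKM, with 0.564 FPKM in double-positive cells.

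Of 27 genes of arginine and polyamine metabolism, 21 reached 1 FPKM in a fraction. Beside Arg2, which the rule chose for its difference, Azin2 was at least 2-fold higher in Zscan4-positive than in Zscan4-negative cells. Azin2, an antizyme inhibitor gene, was at 20.1 against 7.08 FPKM, and none of the 21 was at least 2-fold lower. Arg2 and Azin2 are 2 of 21, where 3.46% of all compared rows were higher. The list median was 0.03, against -0.01 over all compared rows. Arg1, the cytosolic liver arginase, was at 0.152 FPKM in Zscan4-positive cells and the ornithine carbamoyltransferase gene Otc was listed at 0. Odc1, which makes putrescine from ornithine, was at 97.0 against 87.1 FPKM and Oat, which leads ornithine to glutamate or proline, at 21.9 against 17.0.

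Receptors, channels and other membrane proteins made up 16 members between 3.16 and 47.5 FPKM, headed by Tmem92. Cacna1s, the pore subunit of the skeletal muscle calcium channel, was at 12.5 FPKM in Zscan4-positive cells and at 0.139 in Zscan4-negative, 0.209 in double-positive, 0.109 in single-positive and 0.227 in double-negative cells. Chrm3, a muscarinic acetylcholine receptor gene, was at 10.9 FPKM, was listed at 0 in Zscan4-negative cells and reached 0.137 FPKM in double-positive cells. Adgrl3, which encodes the adhesion receptor latrophilin, was at 10.1 FPKM and 0.712 in double-negative cells. The netrin receptor gene Dcc was at 4.10 FPKM and Tacr3, the neurokinin B receptor gene, at 3.16. Several of these are known from neurons or muscle. Of 5 neural markers (Sox1, Pax6, Tubb3, Map2, Nes) none differed 2-fold in the Zscan4 sort on the scale of log2(FPKM + 1), and the median difference was -0.24. That scale understates low genes such as Sox1, which was at 0.508 against 1.69 FPKM. Tubb3 was higher, at 81.8 against 51.1 FPKM, and the other 4 were lower, so that the summed level was 103 FPKM against 78.0. The olfactory receptor genes Olfr376 at 9.80 FPKM and Olfr815 at 3.32 FPKM were both listed at 0 in Zscan4-negative and in single-positive cells.

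Secreted proteins included Defb25, a beta-defensin gene, at 32.7 FPKM in Zscan4-positive, 0.249 in Zscan4-negative, 0.249 in double-positive, 0.252 in single-positive and 1.48 in double-negative cells. Spesp1, which encodes a protein of the sperm acrosome, was at 21.8 FPKM and at most 0.404 elsewhere. Esp24 was at 17.4 FPKM, at 0.199 in double-negative cells and listed at 0 in the other 3 fractions. Sprr2e, an epidermal cornified envelope gene, was at 16.4 FPKM with 0.0623 FPKM in double-positive cells alone. Ccl3, a chemokine gene of immune cells, was at 16.04 FPKM in Zscan4-positive, 0.0429 in Zscan4-negative, 0.217 in double-positive, 0.223 in single-positive and 0 in double-negative cells. Pdgfrl, a PDGF receptor-like gene, was at 16.5 FPKM and 0.881 in double-negative cells.

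Immune-cell genes need a second value beside them, because double-negative and single-positive columns carry T-lineage and fibroblast transcripts. The summed level of 5 T-lineage markers was 215 FPKM in single-positive and 281 in double-negative cells, against 16.8 to 30.1 in the other 3 fractions. On the scale of log2(FPKM + 1), none of the 5 differed 2-fold in the Zscan4 sort. Il6ra, an interleukin 6 receptor gene, was at 6.49 FPKM in Zscan4-positive, 0.182 in Zscan4-negative, 0.593 in double-positive, 0.397 in single-positive and 0.624 in double-negative cells. Nfam1, an immune receptor gene, was at 5.39, 0.135, 0.279, 0.244 and 0.364 FPKM, with the fractions listed as for Il6ra. The part of those cells in the double-negative and single-positive values was not tested. Ccl3 was listed at 0 in double-negative cells and had its highest level outside Zscan4-positive cells, 0.223 FPKM, in single-positive cells. Fibroblast markers summed to 723 FPKM in single-positive and 1007 in double-negative cells and to 12.5 to 21.1 elsewhere. Of them only Thy1 was 2-fold higher in Zscan4-positive than in Zscan4-negative cells among 5 compared, and Lum was listed at 0 in both.

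Gene families of the early embryo held some of the highest and some of the most restricted members. Gm8994 had the highest level of the set, at 163 FPKM in Zscan4-positive, 2.76 in Zscan4-negative, 4.68 in double-positive, 3.01 in single-positive and 3.18 in double-negative cells, and it is also the member with the highest level outside Zscan4-positive cells. Tdpoz4 was at 33.7 FPKM, was listed at 0 in Zscan4-negative cells and stood at 0.267, 0.0271 and 0.199 FPKM in double-positive, single-positive and double-negative cells, and its neighbour Tdpoz3 at 8.34 FPKM and at most 0.103 elsewhere. Of 7 TDPOZ and related genes 4 were compared, these 2 members and 2 others. Spopl was at 6.71 against 6.95 FPKM, Spop itself was at 18.2 against 29.98 FPKM, and Tdpoz1, Tdpoz2 and Tdpoz5 stayed below 1 FPKM. PRAME family genes, by their name in the table or in RefSeq, make up 6 members, from 3.21 to 20.5 FPKM, and none exceeded 0.315 FPKM elsewhere. Pramef25 (RefSeq Pramel16) was the highest of them, at 20.5 FPKM in Zscan4-positive, 0.0135 in Zscan4-negative, 0.315 in double-positive, 0.0149 in single-positive and 0.162 in double-negative cells. Pramef6 was at 7.71 FPKM and Pramel7, a naive pluripotency factor gene, at 4.18. Of 7 compared genes of the PRAME list, 3 are members, whose differences follow from the rule. Among the other 4, Pramel6 and Pramel1 passed 2-fold outside the set, at 2.84 against 0.123 and 3.58 against 0.924 FPKM, while Pramef12 was at 16.5 against 13.3 FPKM and Pramef8 at 8.36 against 4.61.

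Smaller embryo families behaved alike in part. Trim75 was at 6.92 FPKM and Trim43a at 4.57 FPKM in Zscan4-positive cells, and both were at most 0.129 FPKM elsewhere, whereas Trim43b and Trim43c stayed at 0.311 and 0.301 FPKM. In the Obox homeobox list only Obox6 was compared, at 2.46 against 0.0725 FPKM, which is below the 3 FPKM limit. AF067061 was at 15.9 FPKM in Zscan4-positive cells, listed at 0 in Zscan4-negative cells and at 0.509 FPKM in double-positive cells. BB287469 was at 18.05 FPKM on 1 row and 2.53 FPKM on another of the same symbol. Gm5039 and Gm4971, listed by RefSeq as transcribed pseudogenes and named here after their values were seen, were at 150 and 100.3 FPKM, the second and the third highest of the set, with 1.13 and 0.761 FPKM in double-positive cells.

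Nuclear and DNA-binding factors made up 6 members, with a median of 7.06 FPKM in Zscan4-positive cells. Ubtfl1, a paralogue of the ribosomal RNA transcription factor UBF used in the preimplantation embryo, was at 10.7 FPKM in Zscan4-positive, 0.0229 in Zscan4-negative, 0.0530 in double-positive, 0.0238 in single-positive and 0.0855 in double-negative cells. Lmx1a, a LIM homeobox gene of midbrain and roof plate, was at 6.61 FPKM and at most 0.173 elsewhere. Foxa1, a pioneer factor of endoderm, was at 7.82 FPKM and 0.458 in double-negative cells. Of 6 primitive endoderm markers only Dab2 reached 1 FPKM in a fraction, at 0.921 against 1.58 FPKM in the Zscan4 sort. Sox17 was at 0.653 against 0.121 FPKM and Sox7 at 0.810 against 0.222, both below that minimum, and the part of such cells in the Foxa1 level was not tested. Of 7 compared factors linked to zygotic genome activation, Ubtfl1 and Lmx1a are members and the left-out Zfp352 lies within the same limits, so their differences follow from the rule. Of the other 4, Nelfa, a subunit of the NELF pausing complex at 257 against 60.4 FPKM, and Dppa2 at 124 against 48.6 FPKM were at least 2-fold higher, and both were well expressed in every fraction. Dppa4, the partner of Dppa2, was at 84.3 against 111 FPKM.

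Noncoding RNAs numbered 6. Terc, the RNA template of telomerase (chromosome 3, 96414437 to 96414833, minus strand), was at 22.8 FPKM in Zscan4-positive, 1.49 in Zscan4-negative, 1.42 in double-positive, 1.17 in single-positive and 1.90 in double-negative cells. It is 1 of 5 members with a level of at least 1 FPKM outside Zscan4-positive cells, and its 397 bases make its FPKM sensitive to few fragments. Rnu12, the U12 RNA of the minor spliceosome, and the short clones DQ562776 and DQ545231, of 150, 122 and 130 bases, were at 5.73, 30.6 and 21.2 FPKM and listed at 0 in the 4 other fractions. FPKM divides by length, so for RNAs this short a few fragments give a high value, and these were not read as levels. The long noncoding members 5430402O13Rik and 0610005C13Rik were at 8.92 and 6.04 FPKM. GENCODE lists these and Gm4285 (5.18 FPKM) as antisense, and without a stated strand in the counting, reads of an antisense gene and of its partner cannot be told apart.

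Arhgef26, a guanine nucleotide exchange factor gene, was the exception in its profile: at 23.4 FPKM in Zscan4-positive cells, it was next highest in Zscan4-negative cells at 1.63 FPKM, with 0.799 in double-positive, 0.559 in single-positive and 0.818 in double-negative cells. Only 3 members had their highest other level in Zscan4-negative cells. For 44 it was in double-positive, for 23 in double-negative and for 8 in single-positive cells, and 6 were listed at 0 in all 4. Fam124a, at 16.2 FPKM, was at 0.290 in double-positive, 0.260 in double-negative, 0.167 in single-positive and 0.154 FPKM in Zscan4-negative cells. This is the order of the medians given below, but not that of most members. Single-positive exceeded Zscan4-negative cells in 37 members (44.0%).

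As a share of the Zscan4-positive level, the median member stood at 0.199% in Zscan4-negative cells, 0.283% in single-positive, 0.891% in double-negative and 1.54% in double-positive cells. The 26 rows of the left-out families had medians of 0.111%, 0.104%, 0.375% and 0.855% in those fractions, with double-positive again highest. Double-positive exceeded Zscan4-negative cells in 66 of 84 members (78.6%), against 52.7% of the other 9912 rows with at least 3 FPKM in Zscan4-positive cells and 66.7% of the 33 such rows that stayed below 1 FPKM in all 4 other fractions. Double-negative exceeded single-positive cells in 59 members (70.2%), against 44.8% of the 9912 rows and 72.7% of the 33, so that the members' share was near that of the low rows. The 33 were not cleared of the left-out families. They hold Zscan4b, Zscan4c and Zscan4d, which lie within the value limits of the set, so they are not an independent background. Double-positive and Zscan4-negative cells also differ in reporter line, and the share limit shapes all these values. Zscan4-negative cells listed 35 members at 0, single-positive 29, double-negative 16 and double-positive 8.

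**Figure D4:**
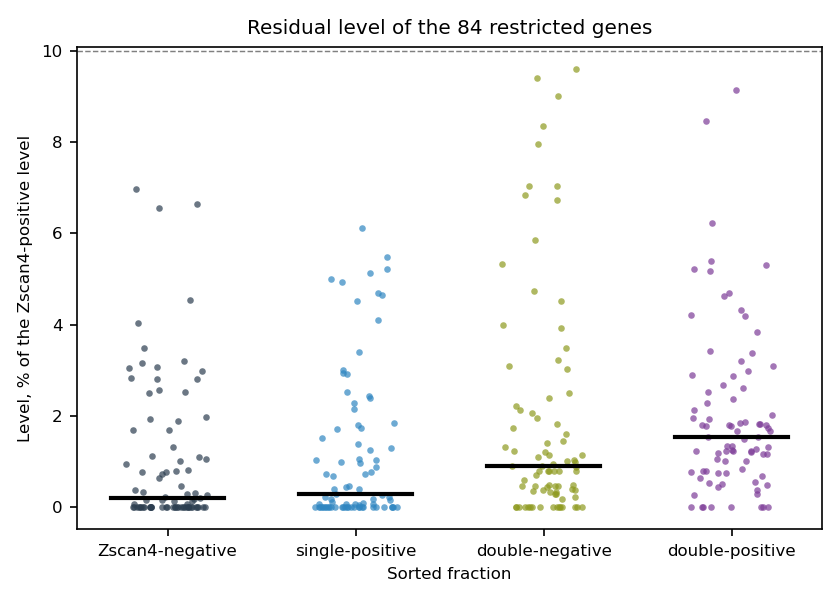
Level of each of the 84 members in the 4 other fractions, as % of its level in Zscan4-positive cells (y axis), 1 point per gene, with black bars at the medians and the dashed line at the 10% limit of the rule. Points of the double-positive and double-negative fractions sit higher, with medians of 1.54% and 0.891%, than those of the single-positive (0.283%) and Zscan4-negative fractions (0.199%).

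Members at the share limit had a measurable level elsewhere. Just inside the share limit were Il6ra (9.60%), Ninj2 (9.41%) and Tspan18 (9.01%), and just outside were Gpr182 (10.1%), Limch1 (10.3%) and Vstm2b (10.8%). At the level limit, Gm21762, Tacr3 and Gm13083 were inside with 3.03, 3.16 and 3.21 FPKM, and Gm7104, Klrb1 and the second row of BB287469 outside with 2.89, 2.82 and 2.53 FPKM. The set thus has no gap at either limit.

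By position, 21 of 84 members lay within 500 kb of another member, in 8 groups. The same share was not counted for other rows, so this count only describes where the members lie. The largest was a run of 5 on chromosome 4 (143567467 to 143951016), with BC080695 and the PRAME genes Gm13083, Gm13078, Pramef6 and Pramef25. On chromosome 11 (94755136 to 94849593) Tmem92 lay between Gm11545, 16034 bases away at 4.86 FPKM, and Gm11544, 62.1 kb away at 5.34 FPKM. These 3 members lay within a stretch of 94.5 kb. GENCODE lists both flanking genes as unprocessed pseudogenes, while RefSeq lists them as coding. Tdpoz4 and Tdpoz3 were 28.5 kb apart on chromosome 3, and Gm11569 and Gm11564 5.08 kb apart on chromosome 11, at 4.203 and 3.55 FPKM. In addition 8 members lay within 500 kb of rows of the left-out families, among them BB287469, Gm1995 and Gm5039 in the multicopy region of chromosome 12. Stox1 and DQ686744 share 1 deposited locus, so their reads cannot be told apart by position.

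Genes beside the members were not chosen by the rule, although rows that met it are left out of them. Of 431 rows within 50 kb that are neither members nor of left-out names, 83 reached 1 FPKM in a fraction. Their median difference between Zscan4-positive and Zscan4-negative cells was 0.04, 9 (10.8%) were at least 2-fold higher and 1 (1.2%) lower, against 3.46% and 0.875% of all compared rows. Without the 7 rows that overlap the locus of a member, 7 of 76 (9.21%) were higher. Of the 9 higher rows, Gm7104, AF067063, Pramel6, BC100303, Gpr182 and the second row of BB287469 reached 1 FPKM in Zscan4-positive cells alone. They could be compared only because they were high there, so the 10.8% is no measure of neighbours in general. With a pseudocount of 0.1 in place of 1, 17 of the 83 were higher. Of the 83, 73 were within 2-fold, and 45 of the 84 members had a compared neighbour.

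The highest of the 9 was BC147527. It lay 35.9 kb from AF067061 on chromosome 13 and was at 23.5 FPKM in Zscan4-positive, 0.156 in Zscan4-negative, 0.210 in double-positive, 2.01 in single-positive and 2.73 in double-negative cells, and it missed the set only through the double-negative level. Pramel6 lay 16013 bases from Pramel7, and AF067063 15.1 kb from Gm21762 at 2.47 FPKM and listed at 0 in Zscan4-negative cells. Gm7104 and the second row of BB287469 lay 33.1 and 40.7 kb from members of the chromosome 12 region. BC100303 and DQ720901 overlap loci of members, so reads may be shared. The other 2 were Gpr182, a receptor gene 7.97 kb from Rdh1, at 4.42 against 0.222 FPKM, and Naalad2, a peptidase gene 6.88 kb from Ubtfl1, at 2.84 against 0.263 FPKM. The lower neighbour was Apela, which encodes a peptide ligand of the apelin receptor, 40.8 kb from Trim75, at 31.8 against 81.5 FPKM.

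**Figure D5:**
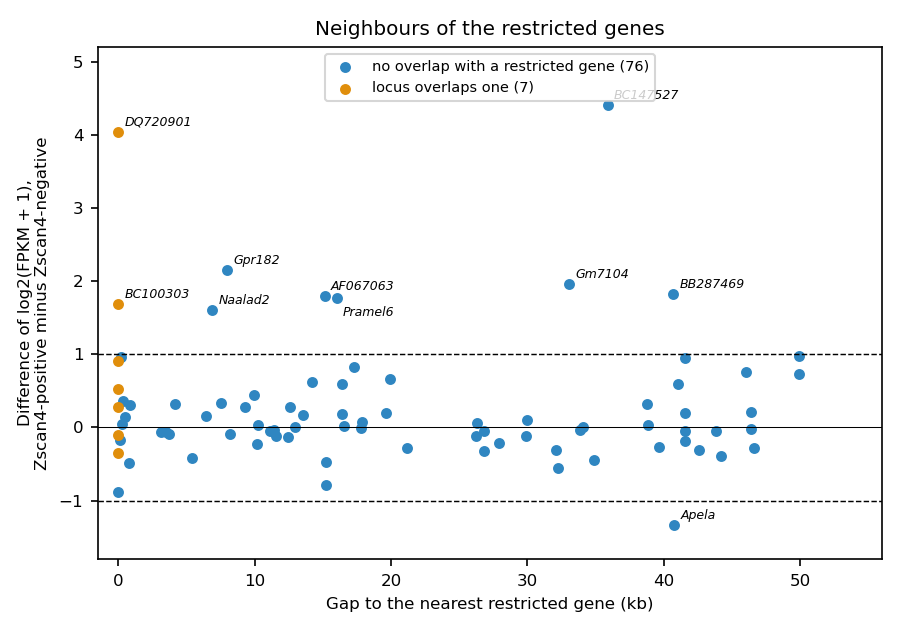
Difference in log2(FPKM + 1) between Zscan4-positive and Zscan4-negative cells (y axis) for 83 compared rows against their gap to the nearest restricted gene (x axis, kb), with dashed lines at 2-fold. Named points are the 9 rows above and the 1 below these lines, and 73 rows lie between them.

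Other cell types and stress were measured as a check on the sort. Of 7 ES markers Nanog was 2-fold higher, at 522 against 257 FPKM, and none was 2-fold lower. Utf1 came near that, at 266 against 501 FPKM. Pou5f1, Sox2 and Dppa5a were lower by less, and Esrrb and Zfp42 were higher. On the scale of log2(FPKM + 1), no trophectoderm marker of 4 compared and no oocyte or spermatogenic marker of 3 compared differed 2-fold. Summed levels were 9.24 against 9.71 and 42.6 against 52.9 FPKM. In the p53 list 1 of 10 genes, Pmaip1, passed 2-fold on the log2(FPKM + 1) scale, at 32.9 against 9.00 FPKM, with a list median of 0.40. Btg2 came near 2-fold, at 18.3 against 9.24 FPKM, and all of the 10 but Bbc3 and Bax were higher. In the stress list 1 of 10, Ddit4, passed 2-fold, at 112 against 41.7 FPKM, with a list median of 0.22. Over all compared rows 3.46% were at least 2-fold higher and the median was -0.01. Low genes of both lists fell short on that scale with higher values in Zscan4-positive cells: Hspa1a was at 2.45 against 0.735 FPKM, Hspa1b at 4.62 against 2.10 and Fas at 0.583 against 0.161. The part of stress in the levels of the members was not tested.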

How the data were processed

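The authors deposited FPKM values, 1 per row and fraction, in a file named for counts. Reads were handled with Cuffdiff 2.2.1, Cufflinks, bcl2fastq 1.8.4 and TopHat2 2.0.14 on mm10, per the submitters' processing notes, while annotation and strand setting are not given in the sources at hand. FPKM is scaled to all mapped fragments, so depth is lost. Values below 1e-06 were taken as 0. Loci are those of the table, counted from 1 here, and can span several genes: of 71 members matched to RefSeq (8 by synonym), 33 had the RefSeq start and end.

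Differences are of log2(FPKM + 1), which understates low genes, over the 13595 rows with at least 1 FPKM in 1 fraction, and a row was called past 2-fold. Named were the 3 marker genes, coding or long noncoding members with at least 10 FPKM and members of 8 gene lists (31 in all); further genes, such as the noncoding RNAs and most receptors, were picked with their values in view, as were the promoters printed. The members and lists were chosen with earlier results of these data known. Promoters come from RefSeq (GRCm38.p6); a gene with several was given the mean of its CG counts. They were compared with BLAST 2.17.0 (E-value at most 1e-10), and Python 3.11.15, pandas 2.3.3 and numpy 2.4.6 were used. The rule and the neighbour search were tested on simulated data.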

Additional observations from a re-analysis of the deposited data

How the results depend on the processing

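No paired analysis was possible because the deposited table holds 1 merged value per fraction, and no library could be left out for the same reason. The number of members lay between 61 (at least 5 FPKM) and 117 (at least 1 FPKM). It was 68 and 103 with share limits of 0.05 and 0.2, and 106, with all 84 among them, when the Zscan4-negative fraction alone set the limit. Equal column totals kept 81 of the 84, and median-ratio scaling kept all and added 2. Rows at least 2-fold higher in Zscan4-positive cells numbered 470, 835 with a pseudocount of 0.1 and 303 with a minimum of 5 FPKM. Higher neighbours numbered 9, 17 with a pseudocount of 0.1, and 4 of 27 within 10 kb, where the median difference was 0.27; the smaller window holds fewer rows. Within 200 kb, 12 of 258 (4.65%) were higher. The median of the arginine list was 0.03 and changed sign to -0.03 under equal column totals. What limits every value is the unknown depth: shares of a few percent of a level near 3 FPKM can rest on few fragments.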
